A study of Mus musculus with 18 samples.

Results

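Follicular B cells taken directly from the spleens of Sh3gl1-/- mice, which lack endophilin A2, were compared with the same cells of WT littermates, without any stimulation. These were 6 samples of 18 in the series, 3 WT and 3 Sh3gl1-/-, chosen by the cell state and genotype that their labels give. The other 12 samples are transitional B cells ex vivo and follicular cells cultured with CD40L for 14 h by the labels (the published text calls the culture overnight and in legends gives a longer time), again with 3 mice of each genotype in each state. The mice were C57BL/6, the mutation is constitutive so that every cell type of the animal lacks the protein, and neither age nor sex is given in the labels. Follicular cells were sorted by surface proteins of mature B cells, and polyadenylated RNA was sequenced. The comparison asks which genes differ in resting B cells without endophilin A2, and it is described here by the function of the genes other than those of iron metabolism and those next to Sh3gl1.

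Endophilin A2 is a cytosolic protein with a curved BAR domain that binds and bends membranes and an SH3 domain that recruits dynamin and synaptojanin. It is best known for fast endophilin-mediated endocytosis, a route without clathrin that takes up activated receptors from the cell surface. Follicular B cells are the resting, recirculating B cells of the spleen and lymph nodes, which carry the B-cell receptor, MHC class II and CD40 on their surface and wait there for antigen and for help from T cells.

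The table held expected counts per gene, and the 6 follicular libraries had between 12894080 and 15501865 counts in total. Levels are given as CPM, counts scaled to the TMM-adjusted library size, and changes as log2 fold change of Sh3gl1-/- over WT with its standard error (SE). A gene was called changed when edgeR's quasi-likelihood test gave an adjusted p under 0.05 after Benjamini-Hochberg correction over all 13610 genes tested, and all adjusted p-values below are from that test. With 3 mice against 3, an exact permutation test of a single gene cannot go below p = 0.1. The evidence for each gene therefore rests on a spread per gene that edgeR estimates with help from all genes. The biological coefficient of variation common to all genes was 18.3%. The libraries matched their labels. Sh3gl1 (ENSMUSG00000003200, chr17:56016750-56036635 on the minus strand) was at 35.3, 36.2 and 34.6 CPM in the WT libraries and 0.155, 0.197 and 0.074 CPM in the Sh3gl1-/- libraries, a ratio of summed counts of 246 with a 95% counting interval from 113 to 672. Its transcripts were thus near the floor of 3 counts per library, which corresponded to between 0.194 and 0.233 CPM. Intervals and floors cover counting error only, because PCR copies were not told apart from separate molecules. All 12 genes of the follicular B-cell list were detected in every group, and their summed level lay between 25568 and 27649 CPM in the WT and between 24549.9 and 26415 CPM in the Sh3gl1-/- libraries. Xist was at 466 CPM in WT replicate 3 and 428 CPM in Sh3gl1-/- replicate 2, where the Y-linked Ddx3y was at 0 and 0.722 CPM, whereas the other 4 libraries had between 238 and 309 CPM of Ddx3y, so that each genotype held 2 libraries of one kind and 1 of the other.

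By edgeR's test a small share of genes differed between Sh3gl1-/- and WT follicular cells. Of 13610 genes, 115 were called, 0.845% of those tested, with 66 higher (0.485%) and 49 lower (0.36%) in Sh3gl1-/- cells. With so small a share over all genes, a list below with none or a single called gene says little about its pathway. Apart from 5 genes on chromosome 17 within 5 Mb of Sh3gl1, which include Sh3gl1 itself, and Ftl1 of the iron genes, 109 called genes remained, 63 higher and 46 lower. Chromosome 17 held 12 called genes of 676 tested there (1.78%), the highest number of any chromosome. Those beyond the 5 Mb were Crisp3, H2-Eb1, H2-Oa, H2-Q6, H2-Q7, Rasgrp3 and Mocs1. Whether their changes go with the chromosome around Sh3gl1 was not tested. Most changes were moderate, with a median absolute log2 fold change of 0.87 among the 63 and 0.90 among the 46, against 0.15 over all genes tested. A change beyond 1 on the log2 scale was seen for 26 of the higher and 21 of the lower genes. The levels of the 109 genes did not overlap between the genotypes in any case, which was true of 16.1% of all genes tested. The threshold lay between Cd3d, just inside (log2 fold change 0.87, SE 0.17, edgeR adjusted p = 0.05), and Sema4b, just outside (log2 fold change -0.54, SE 0.11, edgeR adjusted p = 0.052).

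The number called depended on the test and on the libraries. It was 352 by DESeq2, 602 when all genes with at least 1 count were tested and 49 when all 18 libraries shared 1 fit. It was 32 without Sh3gl1-/- replicate 1, 43 without WT replicate 2, 47 without WT replicate 1 and 53 without Sh3gl1-/- replicate 3, and 107 and 112 without WT replicate 3 and Sh3gl1-/- replicate 2. All 109 genes kept their direction wherever they were tested in 12 alternative analyses. That adds little, because their levels did not overlap between the genotypes in the libraries that these analyses share. Of the 109 genes, 14 were called in each of the 12 alternatives. These 14 were Serpina3f, Serpina3g, Hivep3, Klra1, Cdk5rap1, Lrmp, Loxhd1, Ndrg1, Bbs9, Tgtp2, Rgl1 and Samsn1, all higher, and Cyp4f18 and Pgap1, both lower. In 2 further fits, with the level of T cell or of neutrophil genes as a term, none of the 109 was called, as given beside those markers.

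**Figure D1:**
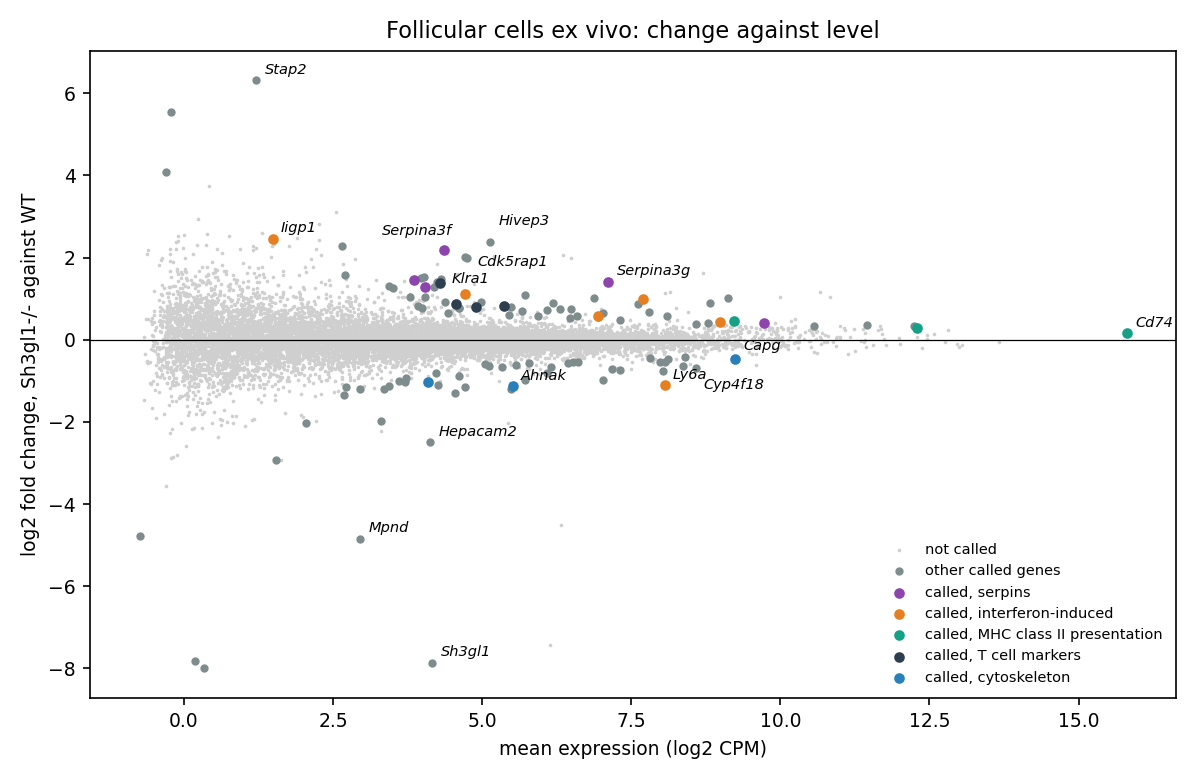
Each point is 1 of 13610 genes in follicular cells ex vivo, with its mean expression in log2 CPM on the x axis and the log2 fold change of Sh3gl1-/- over WT cells on the y axis. The 115 called genes are drawn larger and coloured by gene list, and most of them lie within 2.5 log2 units of 0, with Sh3gl1 and its neighbours Mpnd and Stap2 among the few beyond.

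Serpins were prominent among the genes that rose. Of 20 listed serpins, 8 were tested, 5 were called and all 5 were higher, against 0.485% of all genes called higher. The median log2 fold change was 0.84 over the 8 and -0.003 over all genes. Serpina3f and Serpina3g lie next to each other on chromosome 12 and encode intracellular inhibitors of proteases that are known to be induced by interferon-γ in lymphocytes. Serpina3f (ENSMUSG00000066363, chr12:104214544-104221129 on the plus strand) was at 8.57, 6.94 and 6.43 CPM in the WT libraries and 38.8, 30.1 and 31.9 CPM in the Sh3gl1-/- libraries (log2 fold change 2.20, SE 0.17, edgeR adjusted p = 0.0002). Serpina3g (ENSMUSG00000041481, chr12:104236245-104241939 on the plus strand) was at 85.5, 80.3 and 61.4 CPM in the WT libraries and 231, 159 and 216 CPM in the Sh3gl1-/- libraries (log2 fold change 1.41, SE 0.16, edgeR adjusted p = 0.0028). For both genes every Sh3gl1-/- library was well above every WT library. They are close relatives, and reads that fit both were divided between them by the authors' counting, so the share of each is less certain than their joint rise.

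The other 3 serpins that rose are of clade B, whose members act inside the cell. Serpinb6b was at 5.02, 7.96 and 10.2 CPM in WT and 22.1, 19.96 and 21.3 CPM in Sh3gl1-/- libraries (log2 fold change 1.45, SE 0.23, edgeR adjusted p = 0.017). Serpinb9, the inhibitor of granzyme B, was at 10.04, 8.41 and 10.2 CPM in WT and 18.4, 20.6 and 30.3 CPM in Sh3gl1-/- libraries (log2 fold change 1.28, SE 0.20, edgeR adjusted p = 0.018). Serpinb1a, the inhibitor of neutrophil elastase and cathepsin G, was already abundant and rose less (log2 fold change 0.40, SE 0.07, edgeR adjusted p = 0.034). No group of libraries overlapped for these genes either. Serpini1, Serpine2 and Serpinb6a did not pass the test, with log2 fold changes of -0.20, -0.64 and -0.10. Outside the list and named here after its values were seen, Serpinb7 was lower (log2 fold change -1.15, SE 0.22, edgeR adjusted p = 0.04).

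Genes that type I or type II interferon is known to induce had differences of both signs. Of 73 listed genes 69 were tested, 5 were higher and 1 lower, against 0.845% of all genes called. In the list 33 had a positive sign and 22 an unadjusted p under 0.05, against 1481 of all 13610 genes. The log2 fold changes of the list ranged from -1.36 to 2.46 with a median of -0.02. Those that rose included the transcription factor Irf1 and 3 GTPases. Irf1 (ENSMUSG00000018899, chr11:53770014-53778374 on the plus strand), which acts early in the interferon-γ response, was at 98.7, 103 and 93.5 CPM in the WT libraries and 146, 143 and 149.7 CPM in the Sh3gl1-/- libraries (log2 fold change 0.57, SE 0.08, edgeR adjusted p = 0.011). Its rise was small beside that of the serpins, and each Sh3gl1-/- library was above each WT library.

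Tgtp1 and Tgtp2 are near-identical immunity-related GTPases, which guard the membranes of vacuoles that hold parasites. Tgtp2 was at 125, 146 and 145 CPM in the WT libraries and 249, 252 and 321 CPM in the Sh3gl1-/- libraries (log2 fold change 0.98, SE 0.11, edgeR adjusted p = 0.0032). Tgtp1 was at 18.5, 13.4 and 17.2 CPM in WT and 34.2, 32.1 and 40.7 CPM in Sh3gl1-/- libraries (log2 fold change 1.12, SE 0.15, edgeR adjusted p = 0.0079). Their reads cannot be fully told apart, and they overlap Olfr56 on the opposite strand. Iigp1, a further GTPase of this family, was low, at 1.27, 0.701 and 0.465 CPM in WT and 3.49, 3.15 and 7.01 CPM in Sh3gl1-/- libraries (log2 fold change 2.46, SE 0.49, edgeR adjusted p = 0.05). The gene of the list that fell was Ly6a, which encodes the surface protein Sca-1 and is described with the other surface proteins.

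Regulatory sequence is described for Serpina3f, Serpina3g, Irf1, Tgtp1 and Tgtp2, which are 5 of the genes above that rose. The letters TTCNNNGAA, the palindrome that STAT proteins recognise, were searched on both strands in the 250 bases before each RefSeq transcription start on GRCm38.p6. All 5 genes held it in at least 1 of their promoters. They are not 5 separate matches, since Tgtp1 and Tgtp2 are near-identical and Serpina3f and Serpina3g are close relatives. Serpinb9, which also rose and had a promoter searched, did not hold it. Serpinb6b, Serpinb1a and Iigp1 rose as well and were not among the genes that held it. Whether each of them had a promoter searched is not stated here. It stood in 13 of the 81 called genes that matched the promoter table (16.05%), 8 of them higher and 5 lower, in 7.33% of 9205 tested genes that matched, and in 7.02% of all 32851 promoters. The palindrome reads the same on both strands. The genes to print were chosen after their values were seen, and a match is a description of the letters only. In each sequence, written 5′ to 3′ on the strand of the gene, capitals mark the 9 letters of the match. The windows are chr12:104214294-104214543 for the first Serpina3f promoter, chr12:104235897-104236146 for Serpina3g and chr11:53769764-53770013 for the first Irf1 promoter, all on the plus strand, and chr11:48992247-48992496 for Tgtp1 on the minus strand.
Serpina3f: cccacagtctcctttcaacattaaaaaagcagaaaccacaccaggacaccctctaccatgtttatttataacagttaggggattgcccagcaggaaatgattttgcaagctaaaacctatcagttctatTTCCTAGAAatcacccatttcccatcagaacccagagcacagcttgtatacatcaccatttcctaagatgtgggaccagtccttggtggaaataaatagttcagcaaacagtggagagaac
Serpina3g: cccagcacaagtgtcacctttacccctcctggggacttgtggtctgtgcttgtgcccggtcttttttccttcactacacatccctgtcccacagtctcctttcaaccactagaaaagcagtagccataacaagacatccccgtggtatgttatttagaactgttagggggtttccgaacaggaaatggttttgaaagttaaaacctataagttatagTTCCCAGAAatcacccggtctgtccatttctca
Irf1: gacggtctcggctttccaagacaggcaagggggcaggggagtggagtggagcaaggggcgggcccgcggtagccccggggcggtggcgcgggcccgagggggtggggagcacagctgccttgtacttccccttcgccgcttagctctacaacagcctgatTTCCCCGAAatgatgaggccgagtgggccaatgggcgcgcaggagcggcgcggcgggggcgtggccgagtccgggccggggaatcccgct
Tgtp1: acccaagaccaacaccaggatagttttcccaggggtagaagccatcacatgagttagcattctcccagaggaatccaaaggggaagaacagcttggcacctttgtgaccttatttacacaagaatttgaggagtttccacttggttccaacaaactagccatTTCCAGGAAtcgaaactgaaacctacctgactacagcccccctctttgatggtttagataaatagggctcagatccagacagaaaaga

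The matches began 121, 33, 90 and 88 bases before the start in these 4 windows and read TTCCTAGAA, TTCCCAGAA, TTCCCCGAA and TTCCAGGAA. Tgtp2 held the same letters as Tgtp1, 81 bases before its start. The core of the interferon-stimulated response element, GAAANNGAA on either strand, was also present in Serpina3f, where it shares 3 bases with the capitals, and in Tgtp1 and Tgtp2 apart from them, and was absent from the Serpina3g window and both Irf1 windows. It stood in 12 of the 81 called genes (14.8%), 8 of them higher, and in 7.73% of the 9205 tested genes. The second annotated Irf1 promoter held neither set of letters.

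A few genes of antigen presentation by MHC class II rose slightly. Of the 22 genes listed, all tested, 3 were higher and none lower, 18 had a positive sign, and the median log2 fold change was 0.16. Over all genes 0.485% were called higher and 49.4% had a positive sign. H2-Eb1, the β chain of I-E, was at 4415, 4539.6 and 4571 CPM in WT and 5308, 5684 and 5502 CPM in Sh3gl1-/- libraries (log2 fold change 0.29, SE 0.05, edgeR adjusted p = 0.018). H2-Oa, a subunit of the chaperone that holds back peptide loading in B cells, was at 508, 498 and 517 CPM in WT and 699, 629.5 and 747 CPM in Sh3gl1-/- libraries (log2 fold change 0.45, SE 0.08, edgeR adjusted p = 0.024). Cd74, the invariant chain, was the most abundant of the 3 and rose least (log2 fold change 0.16, SE 0.03, edgeR adjusted p = 0.026). The groups did not overlap for any of them, and the changes amount to no more than 0.45 on the log2 scale. Among genes of MHC class I, named after their values were seen, H2-Q6 (log2 fold change 0.57, SE 0.10, edgeR adjusted p = 0.023), H2-Q7 (log2 fold change 0.67, SE 0.12, edgeR adjusted p = 0.03) and Nlrc5, the transactivator of class I genes (log2 fold change 0.70, SE 0.11, edgeR adjusted p = 0.016), were higher. H2-Q6 and H2-Q7 are near-identical and are counted as 1 uncertain signal.

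Outside these families the gene with the largest rise among those kept in each alternative was Hivep3. Hivep3 (ENSMUSG00000028634, chr4:119733784-120138045 on the plus strand) encodes a large zinc-finger protein, also known as Schnurri-3, that binds κB-like motifs. It was at 12.9, 13.1 and 7.90 CPM in the WT libraries and 69.9, 57.4 and 49.5 CPM in the Sh3gl1-/- libraries (log2 fold change 2.38, SE 0.19, edgeR adjusted p = 0.00033). Its relatives did not pass the test, with log2 fold changes of -0.11 for Hivep1 and 0.07 for Hivep2. Klra1 (ENSMUSG00000079853, chr6:130363917-130386874 on the minus strand) encodes Ly49A, an inhibitory receptor for MHC class I known from natural killer cells. It was at 10.6, 10.6 and 10.1 CPM in the WT libraries and 27.7, 28.9 and 30.5 CPM in the Sh3gl1-/- libraries (log2 fold change 1.47, SE 0.13, edgeR adjusted p = 0.00069), with a spread of under 2 CPM around the mean in either genotype. Of the 26 listed natural killer cell receptors 20 were tested and Klra1 alone was called, with a median of 0.53 over the list. The remaining 19 ranged from -1.23 for Klrg1 to 1.57 for Klra9, and Klra3 had the next lowest p, with log2 fold change 1.33 (edgeR adjusted p = 0.082). The Klra genes are a recent family whose reads can be shared between members.

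The defining genes of natural killer cells were measured beside Klra1. All 10 genes of the natural killer cell list were tested and none was called, 8 had a positive sign, and their summed level lay between 48.9 and 115 CPM in the WT and between 85.5 and 121 CPM in the Sh3gl1-/- libraries, ranges that overlap. Ncr1, which marks these cells, was at 1.87, 1.85 and 7.44 CPM in WT and 4.72, 4.99 and 6.57 CPM in Sh3gl1-/- libraries. The part of such cells in the rise of Klra1 was not tested, and in sorted cells measured in bulk a change in the number of cells of a type cannot be told apart from a change in RNA per cell.

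**Figure D2:**
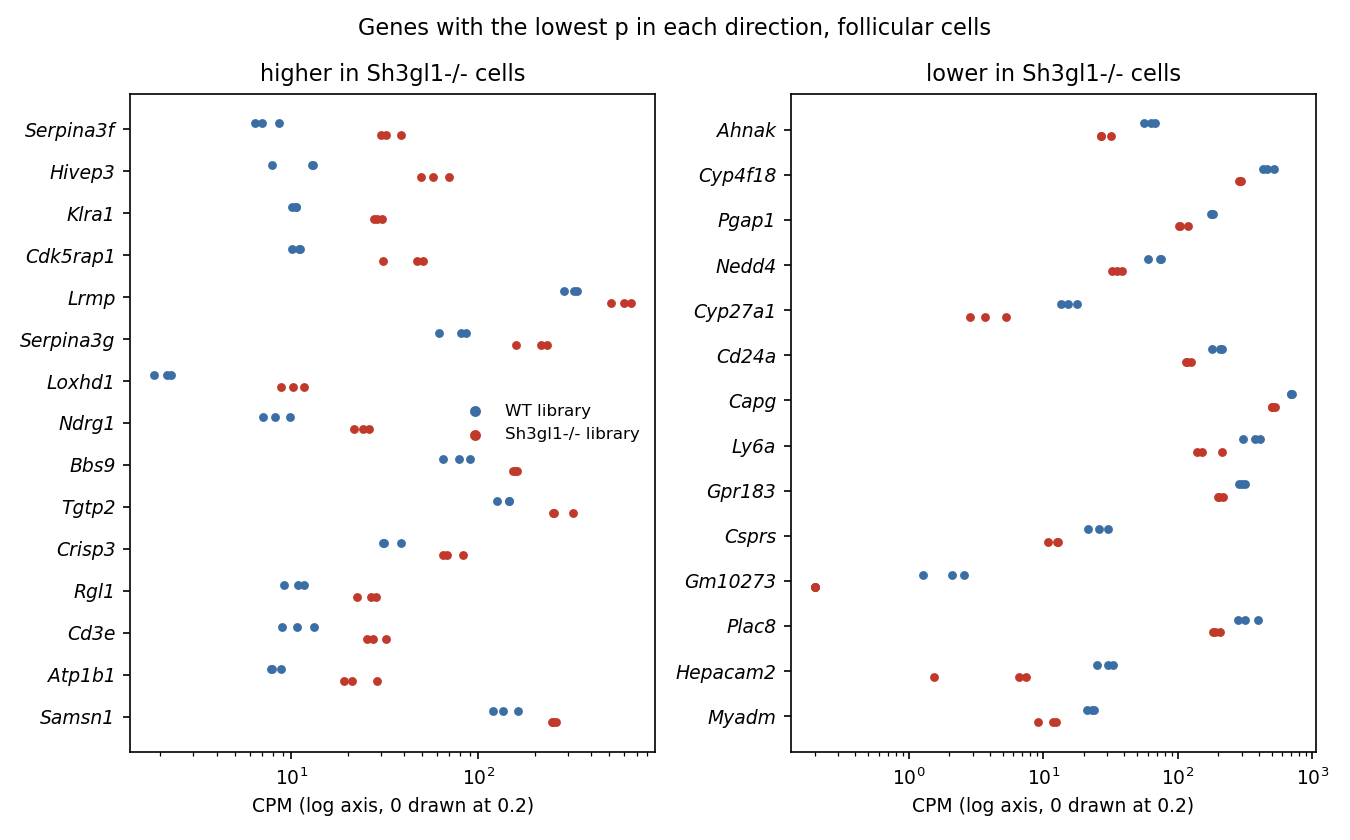
CPM on a log axis in each of the 6 follicular libraries, blue for WT and red for Sh3gl1-/-, for genes with the lowest p in each direction, 15 that rose and 14 that fell, from the lowest p at the top. The genes were chosen so that the 3 points of one genotype do not overlap those of the other, and Gm10273 is at 0 in all 3 Sh3gl1-/- libraries.

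Among signalling genes the changes went both ways. Of 49 genes of B-cell receptor signalling, all tested, 2 were higher and 1 lower, against 0.845% of all genes called. The list had a median log2 fold change of -0.04. Vav3, an exchange factor for small GTPases, was at 10.1, 10.9 and 11.004 CPM in WT and 23.2, 22.6 and 19.8 CPM in Sh3gl1-/- libraries (log2 fold change 1.03, SE 0.15, edgeR adjusted p = 0.01). Rasgrp3, an exchange factor for Ras that diacylglycerol recruits, rose from an already high level (log2 fold change 0.38, SE 0.07, edgeR adjusted p = 0.037). For Vav3 every Sh3gl1-/- library was well above every WT library.

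Adaptors and exchange factors outside that list rose as well. Samsn1, an adaptor with SH3 and SAM domains that restrains B-cell activation, was at 119, 136 and 163 CPM in the WT libraries and 249, 251 and 259 CPM in the Sh3gl1-/- libraries (log2 fold change 0.86, SE 0.11, edgeR adjusted p = 0.004). Rgl1, an exchange factor for Ral GTPases, was at 11.6, 10.9 and 9.14 CPM in WT and 26.6, 28.3 and 22.6 CPM in Sh3gl1-/- libraries (log2 fold change 1.29, SE 0.16, edgeR adjusted p = 0.0038). Both are among the 14 genes called in each alternative. Lrmp, also named Jaw1, is a membrane protein of the endoplasmic reticulum and nuclear envelope that is abundant in germinal centre B cells. It was at 286, 335 and 322 CPM in the WT libraries and 597, 656 and 513 CPM in the Sh3gl1-/- libraries (log2 fold change 0.90, SE 0.10, edgeR adjusted p = 0.0028) and was the only one of 22 tested genes of the plasma cell and germinal centre list to pass.

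Cytokine receptors showed 1 gene higher and 1 lower of 34 tested, against 0.845% of all genes called. The list had a median log2 fold change of 0.11. Il9r, the receptor of interleukin 9, was at 53.3, 52.3 and 45.9 CPM in WT and 109, 77.9 and 97.1 CPM in Sh3gl1-/- libraries (log2 fold change 0.90, SE 0.13, edgeR adjusted p = 0.01). Il10ra, the ligand-binding chain of the interleukin 10 receptor, was at 94.2, 98.4 and 69.6 CPM in WT and 55.4, 57.04 and 53.5 CPM in Sh3gl1-/- libraries (log2 fold change -0.66, SE 0.13, edgeR adjusted p = 0.045). The lowest WT library of Il10ra came close to the Sh3gl1-/- range, while Il9r was separated by more. In the list of CD40 and NF-κB genes none of 41 tested was called, against 0.845% of all genes. The member with the lowest p was Cd83 (log2 fold change 0.37, edgeR adjusted p = 0.08).

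Several of the strongest rises were in genes whose known roles lie elsewhere. Cdk5rap1 (ENSMUSG00000027487, chr2:154335380-154373010 on the minus strand), an enzyme that modifies mitochondrial tRNAs, was at 10.1, 11.1 and 11.004 CPM in the WT libraries and 50.5, 47.1 and 30.8 CPM in the Sh3gl1-/- libraries (log2 fold change 2.0, SE 0.18, edgeR adjusted p = 0.0007). It was the only one called among 23 tested genes of kinesins, centrosomes and tRNA modification, whose median was 0.02. Sh3gl1-/- replicate 3 had a lower value than the other two, though still far above the WT libraries. Loxhd1, best known for its role in hair cells of the inner ear, was at 2.28, 1.85 and 2.17 CPM in WT and 11.7, 10.2 and 8.85 CPM in Sh3gl1-/- libraries (log2 fold change 2.28, SE 0.25, edgeR adjusted p = 0.0028). Bbs9, a subunit of the BBSome that carries membrane proteins to cilia, was at 64.9, 78.98 and 89.7 CPM in WT and 156, 160.2 and 152 CPM in Sh3gl1-/- libraries (log2 fold change 1.0, SE 0.12, edgeR adjusted p = 0.0032). Both genes were separated between the genotypes by more than the range within either.

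Ndrg1, a gene known to respond to hypoxia and other stress, was at 8.17, 9.87 and 7.05 CPM in WT and 24.3, 21.6 and 26.05 CPM in Sh3gl1-/- libraries (log2 fold change 1.52, SE 0.17, edgeR adjusted p = 0.0032). Crisp3, a secreted cysteine-rich protein, was at 31.2, 31.1 and 38.4 CPM in WT and 82.9, 64.99 and 67.9 CPM in Sh3gl1-/- libraries (log2 fold change 1.10, SE 0.13, edgeR adjusted p = 0.0033). Atp1b1, the β subunit of the sodium pump, was at 8.84, 7.90 and 7.83 CPM in WT and 28.9, 19.1 and 21.2 CPM in Sh3gl1-/- libraries (log2 fold change 1.49, SE 0.19, edgeR adjusted p = 0.004). In all 3 the lowest Sh3gl1-/- library exceeded the highest WT library by a wide margin. Btg1, which restrains proliferation and is typical of quiescent lymphocytes, rose from a high level (log2 fold change 0.34, SE 0.06, edgeR adjusted p = 0.034) as the only one of 48 tested genes of quiescence and B-cell identity.

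The genes that fell were led by proteins of the cell cortex. Of 68 tested cytoskeletal genes 3 were lower and none higher, against 0.36% of all genes called lower. The median log2 fold change of the list was -0.09. Ahnak (ENSMUSG00000069833, chr19:8989284-9076914 on the plus strand) encodes a giant scaffold under the plasma membrane. It was at 55.8, 67.4 and 63.7 CPM in the WT libraries and 26.7, 31.8 and 27.1 CPM in the Sh3gl1-/- libraries (log2 fold change -1.12, SE 0.12, edgeR adjusted p = 0.0022), and no Sh3gl1-/- library came near the WT range. Capg, which caps actin filaments, was at 709, 701 and 692 CPM in WT and 501, 501 and 525 CPM in Sh3gl1-/- libraries (log2 fold change -0.46, SE 0.06, edgeR adjusted p = 0.0081). Myadm, a membrane protein of lipid rafts that organises the cortex, was at 23.02, 23.8 and 21.2 CPM in WT and 12.5, 11.8 and 9.08 CPM in Sh3gl1-/- libraries (log2 fold change -1.03, SE 0.16, edgeR adjusted p = 0.017). The replicates of Capg lay close to each other, and its fall was the smallest of the 3.

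Homing and adhesion had 1 gene higher and 2 lower of 43 tested, against 0.845% of all genes called, with a median of -0.01. Gpr183, also called EBI2, is the oxysterol receptor that guides B cells to the outer follicle. It was at 285, 299 and 314 CPM in the WT libraries and 199.8, 202 and 215 CPM in the Sh3gl1-/- libraries (log2 fold change -0.54, SE 0.08, edgeR adjusted p = 0.011). Itga4, the α4 integrin chain that binds VCAM-1, was at 260.1, 246 and 273 CPM in WT and 184, 208 and 176 CPM in Sh3gl1-/- libraries (log2 fold change -0.46, SE 0.09, edgeR adjusted p = 0.046). Both fell by less than 1 on the log2 scale and without overlap. Ccr1, a receptor of inflammatory chemokines, rose (log2 fold change 0.77, SE 0.15, edgeR adjusted p = 0.042). Cxcr5, which guides B cells into follicles and stands in the follicular marker list, was not called.

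Some enzymes and carriers of lipid metabolism fell. Of 25 tested genes of lipid mediators and cytochrome P450, 2 were lower and none higher, against 0.36% of all genes called lower. The median of the list was nevertheless 0.06. Cyp4f18 (ENSMUSG00000003484, chr8:71988482-72009626 on the minus strand), which inactivates leukotriene B4, was at 522, 431 and 464 CPM in the WT libraries and 297, 290.1 and 287 CPM in the Sh3gl1-/- libraries (log2 fold change -0.70, SE 0.08, edgeR adjusted p = 0.0036). Pltp, the phospholipid transfer protein, was at 6.76, 7.01 and 5.35 CPM in WT and 2.25, 1.12 and 1.33 CPM in Sh3gl1-/- libraries (log2 fold change -2.03, SE 0.35, edgeR adjusted p = 0.024). Pltp overlaps Ctsa, and Cyp4f18 overlaps Zfp961, on the opposite strand. Cyp27a1, which makes 27-hydroxycholesterol and is not in the list, was at 17.8, 15.2 and 13.6 CPM in WT and 3.72, 5.25 and 2.88 CPM in Sh3gl1-/- libraries (log2 fold change -1.97, SE 0.25, edgeR adjusted p = 0.004). Cyp4f18 was abundant and its fall was even across mice, while Pltp and Cyp27a1 were low and near a few CPM in Sh3gl1-/- cells. Cd36, the scavenger receptor for lipids, was also lower (log2 fold change -1.19, SE 0.21, edgeR adjusted p = 0.025) and is named after its values were seen. None of 33 tested genes of cholesterol and fatty acid synthesis was called, with a median of -0.17 and Srebf2 at the lowest p (log2 fold change -0.40, edgeR adjusted p = 0.18).

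Surface proteins with a GPI anchor, and an enzyme that matures it, were among the genes that fell. Pgap1, the enzyme that remodels the anchor in the endoplasmic reticulum, was at 176, 179.5 and 182 CPM in the WT libraries and 103, 119 and 105 CPM in the Sh3gl1-/- libraries (log2 fold change -0.72, SE 0.09, edgeR adjusted p = 0.0038). Cd24a was at 205, 214 and 179 CPM in WT and 116, 114 and 126 CPM in Sh3gl1-/- libraries (log2 fold change -0.75, SE 0.09, edgeR adjusted p = 0.004), and was called in the list of inhibitory and Fc receptors as its only member of 25 tested. Of those 25 genes 13 had a positive sign and 14 an unadjusted p under 0.05, against 1481 of all 13610 genes. Ly6a was at 374, 307 and 412 CPM in WT and 151, 139.8 and 215 CPM in Sh3gl1-/- libraries (log2 fold change -1.11, SE 0.16, edgeR adjusted p = 0.01). All 3 genes were separated between the genotypes. Plaur, the urokinase receptor, was lower too (log2 fold change -0.55, SE 0.10, edgeR adjusted p = 0.028), whereas Izumo1r rose (log2 fold change 1.31, SE 0.23, edgeR adjusted p = 0.028), and both are named after their values were seen. No list of anchored proteins had been set up, so these genes are given one by one.

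The remaining genes with the lowest p among those that fell have varied roles. Nedd4, a ubiquitin ligase, was at 73.96, 74.6 and 59.7 CPM in WT and 35.2, 38.4 and 32.2 CPM in Sh3gl1-/- libraries (log2 fold change -0.98, SE 0.12, edgeR adjusted p = 0.0038). Plac8, a small cysteine-rich protein, was at 317, 279.7 and 392.2 CPM in WT and 189, 184 and 207 CPM in Sh3gl1-/- libraries (log2 fold change -0.77, SE 0.12, edgeR adjusted p = 0.014). Hepacam2, an adhesion protein of the immunoglobulin superfamily, was at 25.1, 32.99 and 30.5 CPM in the WT libraries and 6.58, 7.48 and 1.55 CPM in the Sh3gl1-/- libraries (log2 fold change -2.50, SE 0.38, edgeR adjusted p = 0.015). Sh3gl1-/- replicate 3 had the lowest value of Hepacam2. Csprs, on an unplaced scaffold with close copies elsewhere, was at 21.5, 30.5 and 26.04 CPM in WT and 12.7, 12.8 and 10.8 CPM in Sh3gl1-/- libraries (log2 fold change -1.10, SE 0.16, edgeR adjusted p = 0.013) and its level is uncertain for that reason. Gm10273, a predicted gene, was at 1.27, 2.10 and 2.56 CPM in WT and 0, 0 and 0 CPM in Sh3gl1-/- libraries (edgeR adjusted p = 0.014), at least 27.1-fold lower against a floor of 3 counts over the group. Fos was the only one of 27 tested immediate early genes to be called, at 13.5, 14.3 and 14.1 CPM in WT and 6.04, 7.35 and 4.80 CPM in Sh3gl1-/- libraries (log2 fold change -1.20, SE 0.21, edgeR adjusted p = 0.025), and the median of that list was -0.12.

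Endocytosis itself showed no called gene, where 0.845% of all genes tested were called. Of 50 genes listed 45 were tested, 11 had a positive sign, and the median log2 fold change was -0.14. The member with the lowest p was Synj2, a lipid phosphatase of the synaptojanin family, at 6.09, 5.03 and 4.96 CPM in WT and 1.32, 2.69 and 2.36 CPM in Sh3gl1-/- libraries (log2 fold change -1.33, edgeR adjusted p = 0.12). No other endophilin was called in either direction. Sh3gl2 had 0 counts in all 6 libraries and Sh3gl3 had 0 in 5 of them and 0.155 CPM in Sh3gl1-/- replicate 1. Sh3glb1 (log2 fold change -0.19, SE 0.12, edgeR adjusted p = 0.64) and Sh3glb2 (log2 fold change -0.16, SE 0.14, edgeR adjusted p = 0.78) did not pass the test.

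Ribosomal protein genes had small differences that were mostly positive. None of 81 tested genes of the cytosolic ribosome was called, but 75 had a positive sign and 65 an unadjusted p under 0.05, with a median log2 fold change of 0.26 and a range from -0.23 to 0.44. Over all genes 49.4% had a positive sign and 1481 of 13610 had an unadjusted p under 0.05. Rps6, the member with the lowest p, was at 870.1, 911 and 988 CPM in WT and 1151, 1109.7 and 1180.5 CPM in Sh3gl1-/- libraries (log2 fold change 0.31, edgeR adjusted p = 0.064). These genes vary together between libraries, so their number adds little beyond the 6 mice.

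Genes of the respiratory chain stayed near 0 (median 0.04 over 77, none called, lowest p for Uqcrc1 with log2 fold change -0.46 and edgeR adjusted p = 0.064). Of the transcripts of the mitochondrial genome, mt-Co3 was called and is named after its values were seen, at 441, 329 and 339 CPM in WT and 912, 555 and 768 CPM in Sh3gl1-/- libraries (log2 fold change 1.01, SE 0.16, edgeR adjusted p = 0.018). Its neighbour mt-Atp6 had log2 fold change 0.41 (edgeR adjusted p = 0.21) and mt-Co2 -0.01, and neither was called.

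No gene was called in 6 further lists, which is close to the share of 0.845% over all genes tested. The median log2 fold change was -0.03 for 22 tested genes of Toll-like receptors, 0.00 for 20 of the Notch2 pathway, -0.01 for 29 of the unfolded protein response, 0.01 for 44 of the lysosome, -0.00 for 52 of Rab and membrane traffic and 0.11 for 27 of apoptosis. The members with the lowest p in these lists were Unc93b1 (-0.18), Notch2 (-0.37), Edem2 (-0.49), Npc2 (0.25), Rab30 (0.42) and Fas (0.72), in that order, as log2 fold changes that did not pass. The 25 tested genes of atypical B cells held Ccr1 and Ahnak, already given, with a median of 0.06, and of 9 tested genes of the MS4A family Ms4a4b was higher (log2 fold change 0.74, SE 0.14, edgeR adjusted p = 0.034) with a median of 0.33.

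**Figure D3:**
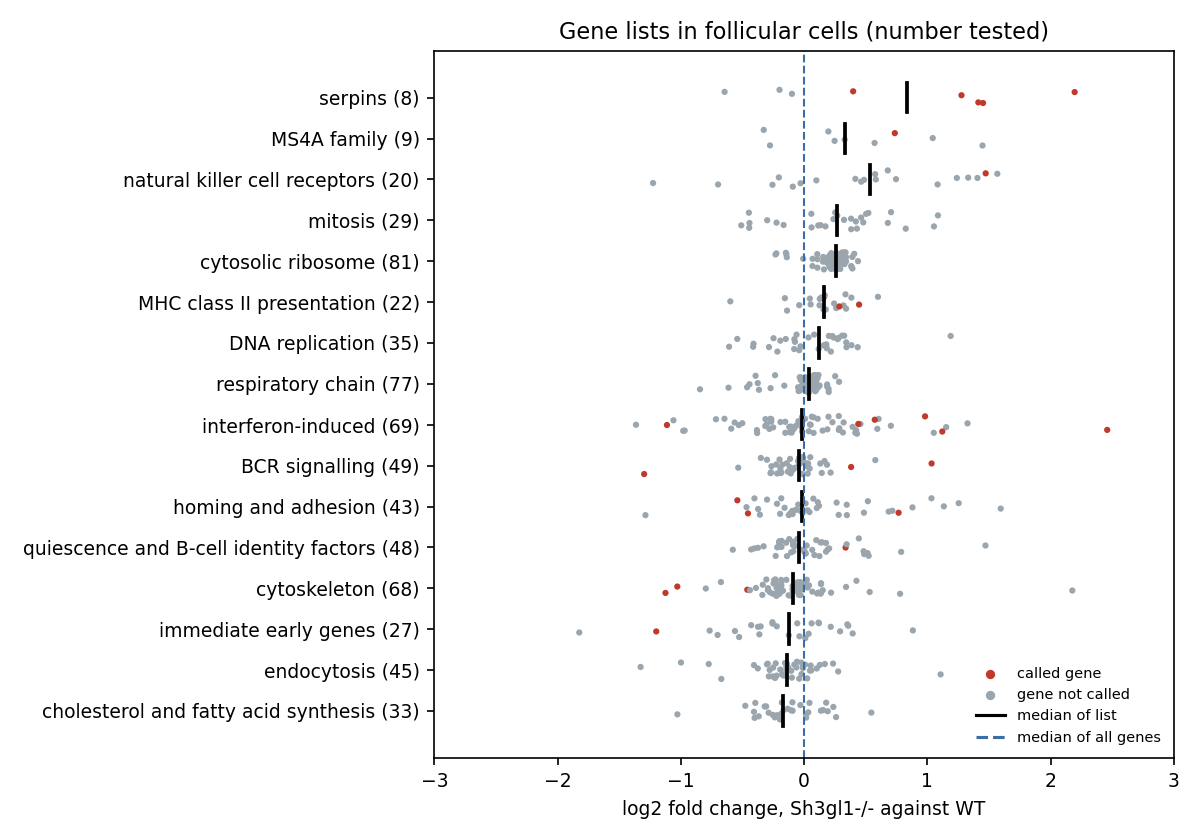
Log2 fold change of Sh3gl1-/- over WT follicular cells on the x axis for the tested genes of 16 lists, with called genes in red, other genes in grey, the median of each list as a black bar and the median of all 13610 genes as a dashed line. Serpins have the highest median at 0.84, the cytosolic ribosome forms a tight cluster around 0.26, and most other medians lie within 0.2 of 0.

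Markers of other blood cells differed between the genotypes in the sorted cells. All 15 genes of the T cell list were tested, all 15 had a positive sign and an unadjusted p under 0.05, 4 were called and the median log2 fold change was 0.81. Their summed level lay between 173 and 225 CPM in the WT and between 316 and 421 CPM in the Sh3gl1-/- libraries. Cd3e, a chain of the T-cell receptor complex, was at 10.8, 8.92 and 13.2 CPM in WT and 27.3, 25.5 and 31.9 CPM in Sh3gl1-/- libraries (log2 fold change 1.37, SE 0.17, edgeR adjusted p = 0.004). Trbc2 (log2 fold change 0.83, SE 0.13, edgeR adjusted p = 0.018) and Lat (log2 fold change 0.80, SE 0.15, edgeR adjusted p = 0.036) were also called with Cd3d. Cd4 was at 3.15, 7.39 and 2.56 CPM in WT and 9.84, 7.42 and 8.12 CPM in Sh3gl1-/- libraries and Cd8a at 5.49, 7.13 and 8.68 CPM in WT and 11.4, 9.85 and 11.9 CPM in Sh3gl1-/- libraries, and neither passed the test. None of the 15 genes was at 0 in all libraries.

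Genes of the neutrophil list had a median log2 fold change of 1.89 over 15 tested, all with a positive sign, 10 at an unadjusted p under 0.05 and none called. Their summed level lay between 83.4 and 199 CPM in the WT and between 208 and 908 CPM in the Sh3gl1-/- libraries, and Sh3gl1-/- replicate 1 held the highest. S100a8 was at 47.7, 22.5 and 24.6 CPM in WT and 257, 51.99 and 86.9 CPM in Sh3gl1-/- libraries. Ly6g, which defines these cells, was at 0 in all WT libraries and at 1.24, 0.525 and 0.443 CPM in Sh3gl1-/- libraries. Of 12 tested erythroid and platelet genes 11 had a positive sign with summed levels between 1504 and 4038 CPM in the WT and between 3133 and 9714 CPM in the Sh3gl1-/- libraries, and of 11 tested macrophage and monocyte genes 9 did, with summed levels between 152 and 198 CPM in the WT and between 168 and 371 CPM in the Sh3gl1-/- libraries, ranges that overlap in both cases.

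The 109 genes have to be read beside these levels. With the mean log2 CPM of the T cell list as a term in the fit 1 gene was called, Sh3gl1, and with that of the neutrophil list 2 were, Sh3gl1 and Mpnd. None of the 109 was among them, and 108 and 109 of the 109 kept their direction. Both lists were themselves separated between the genotypes, so either term takes up much of the difference between them, and how much of any change came from other cells was not tested. Called genes known from T cells, such as Cd3e, Cd3d, Trbc2, Lat, Ms4a4b, Fyb, Itm2a and Izumo1r, and Chil3, known from myeloid cells (log2 fold change 2.01, SE 0.40, edgeR adjusted p = 0.05), share the direction of those lists.

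Markers of B-cell stages were measured in the same way. The summed level of 10 marginal zone genes lay between 511 and 609.6 CPM in the WT and between 422 and 440.1 CPM in the Sh3gl1-/- libraries, and that of 8 transitional genes between 387 and 476 CPM in the WT and between 309.5 and 326 CPM in the Sh3gl1-/- libraries, without overlap in either case. Of the marginal zone list 9 genes were tested and none was called (median -0.36). In that list 3 genes had a positive sign and 6 an unadjusted p under 0.05, against 1481 of all 13610 genes. The paper reports fewer marginal zone B cells in the spleens of Sh3gl1-/- mice. The part of such cells in the genes that fell was not tested. Among transitional markers Rag1 and Igll1 had 0 counts throughout and Cd24a was the only one of 4 tested genes to be called. The median of these 4 was 0.17 with 2 of positive sign, and much of the lower sum was Cd24a, with a mean of 199 CPM in WT and 119 CPM in Sh3gl1-/- libraries. Ighd, the heavy chain of IgD on mature cells, was higher (log2 fold change 0.34, SE 0.07, edgeR adjusted p = 0.048) as the only called gene of the follicular list. Of its 12 genes 10 had a negative sign, 8 had an unadjusted p under 0.05, and the median was -0.18. The B-1 list had 9 tested genes, none called and summed levels between 123 and 126 CPM in the WT and between 114 and 148 CPM in the Sh3gl1-/- libraries. The 9 tested genes each of the dendritic and plasma cell lists held none called, with summed levels between 345 and 385 CPM in the WT and between 329.7 and 397 CPM in the Sh3gl1-/- libraries for the first and between 566 and 623 CPM in the WT and between 594 and 603 CPM in the Sh3gl1-/- libraries for the second.

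**Figure D4:**
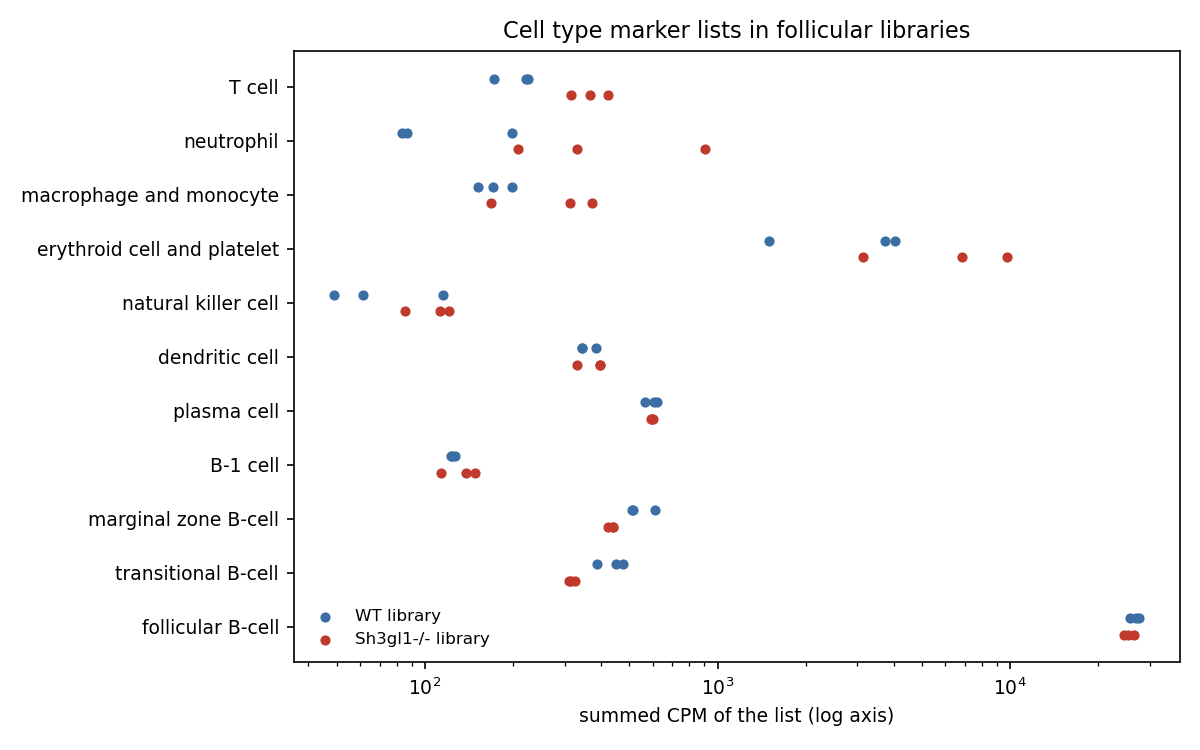
Summed CPM, on a log axis, of the genes of 11 cell type marker lists in each follicular library, blue for WT and red for Sh3gl1-/-. T cell and neutrophil genes are higher in every Sh3gl1-/- library than in any WT library, the sums of marginal zone and transitional genes are lower, the latter mostly through Cd24a, and follicular genes stay between 24550 and 27649 CPM.

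The remaining called genes fall outside the lists and are named after their values were seen. Among those that rose were regulators of transcription and chromatin, namely Nfe2l2, which drives the oxidative stress response (log2 fold change 0.56, SE 0.09, edgeR adjusted p = 0.015), and the deacetylases Hdac7 (log2 fold change 0.74, SE 0.13, edgeR adjusted p = 0.025) and Hdac9 (log2 fold change 0.65, SE 0.10, edgeR adjusted p = 0.018). Il12a, a subunit of interleukin 12 and 35, was at 80.2, 74.1 and 77.6 CPM in WT and 116, 113 and 117 CPM in Sh3gl1-/- libraries (log2 fold change 0.58, SE 0.08, edgeR adjusted p = 0.011). Genes of membrane traffic also stood there, with Rabgef1, an exchange factor for Rab5 (log2 fold change 0.71, SE 0.11, edgeR adjusted p = 0.017), and Ehd4, an ATPase of recycling endosomes (log2 fold change 0.61, SE 0.11, edgeR adjusted p = 0.037). Stap1 (log2 fold change 0.40, SE 0.08, edgeR adjusted p = 0.05) and Sh3bp2 (log2 fold change 0.58, SE 0.10, edgeR adjusted p = 0.029) are adaptors of B-cell receptor signalling. Nbn, of the complex that senses DNA breaks (log2 fold change 1.05, SE 0.16, edgeR adjusted p = 0.016), Plin2, of lipid droplets (log2 fold change 0.65, SE 0.13, edgeR adjusted p = 0.048), and Cd27, a costimulatory receptor (log2 fold change 0.78, SE 0.15, edgeR adjusted p = 0.047), rose as well.

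Genes detected almost only in one genotype were few and low. Smim1 had 60 counts in all Sh3gl1-/- libraries against 1 in WT, a ratio of 62.7 with a counting interval from 10.8 to 2516. Aoah, which detoxifies lipopolysaccharide, had 54 counts against 3, a ratio of 18.8 with an interval from 6.10 to 94.0. Neurod4 went the other way with 38 counts in WT and 1 in Sh3gl1-/- libraries, a ratio of 36.4 with an interval from 6.15 to 1475. Gm20775, annotated on the Y chromosome, was at 2.34, 1.46 and 2.94 CPM in WT and at 0 in all Sh3gl1-/- libraries, at least 30.6-fold lower against the floor. Its highest value was in WT replicate 3, which had no counts of the Y-linked Ddx3y, so its reads are of uncertain origin.

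Among the other genes that fell were Ptprj, the phosphatase CD148 (log2 fold change -0.81, SE 0.14, edgeR adjusted p = 0.025), Tsc22d3, a glucocorticoid-induced regulator known as GILZ (log2 fold change -0.55, SE 0.10, edgeR adjusted p = 0.026), Clec12a, an inhibitory lectin receptor (log2 fold change -1.15, SE 0.21, edgeR adjusted p = 0.033), Mocs1, which starts the synthesis of molybdenum cofactor (log2 fold change -2.93, SE 0.57, edgeR adjusted p = 0.045), and Hpse, the enzyme that cleaves heparan sulfate (log2 fold change -1.13, SE 0.21, edgeR adjusted p = 0.032). Ptprj overlaps 4933423P22Rik on the opposite strand, and both were called lower. Inpp4a, a phosphatase of phosphoinositides (log2 fold change -0.66, SE 0.12, edgeR adjusted p = 0.033), Adam19, a membrane metalloproteinase (log2 fold change -0.62, SE 0.12, edgeR adjusted p = 0.048), Uchl3, a deubiquitinating enzyme (log2 fold change -0.58, SE 0.10, edgeR adjusted p = 0.025), and Txndc5, a disulphide isomerase (log2 fold change -0.42, SE 0.08, edgeR adjusted p = 0.034), fell by less.

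The 109 genes were then followed in the other cell states, whose WT and Sh3gl1-/- libraries are separate samples, although the labels do not say whether they came from the same mice. In transitional cells 514 of 13774 genes were called (3.73%). Of the 109 genes 108 were tested there, 103 (95.4%) had the same sign as in follicular cells, and 44 were called, all 44 with the same sign. Over all 13158 genes tested in both states, most of them called in neither, 53.7% had the same sign. Marker lists of other cells were higher there too. Their median log2 fold changes were 0.68 for T cells, 1.43 for neutrophils, 1.20 for erythroid cells and platelets and 0.41 for macrophages and monocytes. The part of other cells in the shared signs was not tested. The median log2 fold change of the higher genes was 0.87 in follicular and 0.65 in transitional cells, and that of the lower genes -0.90 and -0.54.

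Hivep3 (1.84, edgeR adjusted p = 8.9e-05), Serpina3f (1.87, 0.013), Klra1 (1.35, 0.0039), Cdk5rap1 (1.71, 0.018) and Plac8 (-1.14, 0.0077) were among the 44, each given as its log2 fold change and edgeR adjusted p in transitional cells. Of the 5 genes with the opposite sign there none was called in transitional cells, and they included Ccr1 (-0.13), mt-Co3 (-0.32), Man1a (0.03) and Gm10273 (1.92). Lrmp (0.22, edgeR adjusted p = 0.18) and Ndrg1 (0.37, 0.3) kept their sign and were not called.

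After culture with CD40L 3 of 13188 genes were called between the genotypes (0.0227%). Of the 109 genes 95 were tested there and 86 (90.5%) had the same sign. That compares with 48.8% of the 12605 genes tested in both, most of which were called in neither state. Only Mocs1 was called, with a log2 fold change of -2.71. The others of the 3 were Sh3gl1 and Mpnd, so all 3 lie on chromosome 17, Mocs1 outside the 5 Mb window around Sh3gl1. The median of the higher genes was 0.56 after culture and that of the lower genes -0.47. Marker lists had medians of 0.71 for T cells and 1.96 for neutrophils after culture. Those for erythroid cells and platelets and for macrophages and monocytes were -0.95 and -0.21. Hivep3 (1.73), Klra1 (1.22), Cdk5rap1 (1.36) and Cyp4f18 (-1.18) had log2 fold changes of the same sign there without passing. The difference in genotype effect between the 2 states was tested for 14460 genes, and 0 genes (0%) were called by edgeR, with 1278 at an unadjusted p under 0.05 and 29 called by DESeq2.

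**Figure D5:**
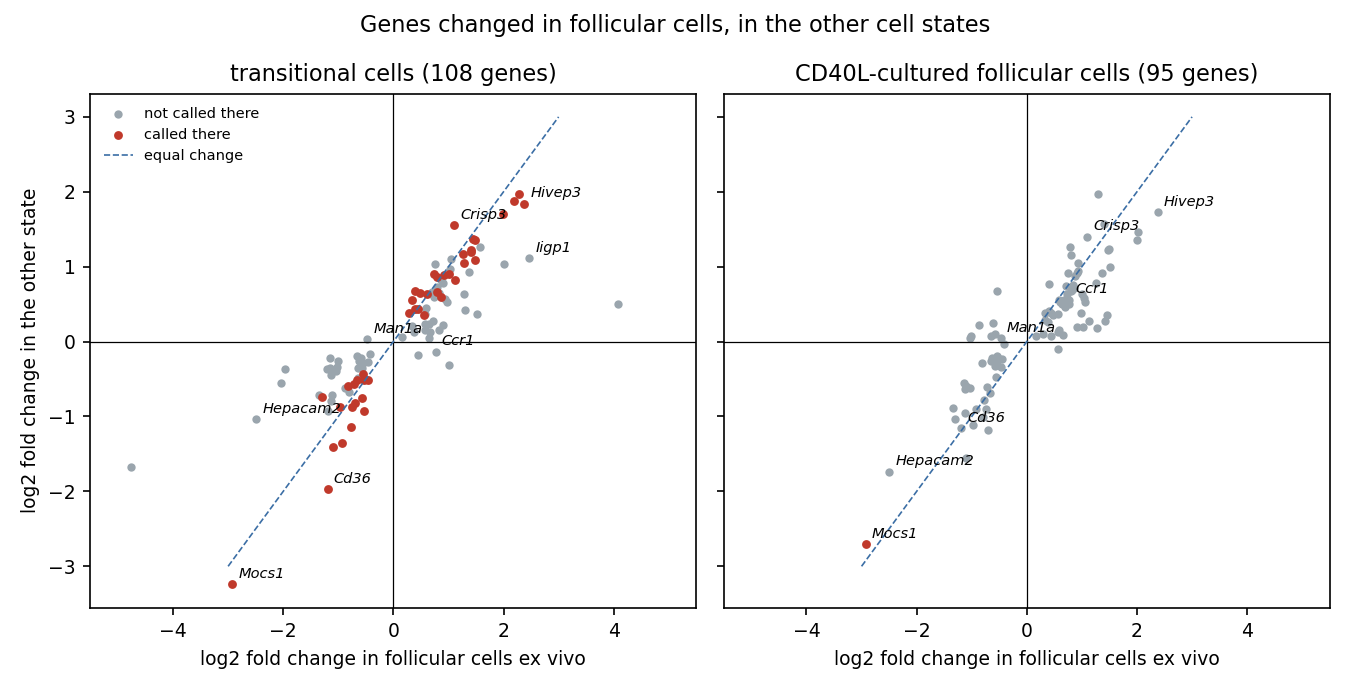
Log2 fold change of Sh3gl1-/- over WT cells in follicular cells ex vivo on the x axis against transitional cells (left, 108 genes) and CD40L-cultured follicular cells (right, 95 genes) on the y axis, for the genes called ex vivo apart from the iron gene and those near Sh3gl1, with genes called in the other state in red. Most points have the same sign on both axes, and Gm20775 and Gm10273, which had no counts in Sh3gl1-/- follicular cells, lie outside the x range.

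Genes of cell division were most of the few whose genotype effect differed between follicular and transitional cells by edgeR's test. The genotype effect differed between the 2 states for 10 of 14580 genes (0.0686%), tested as an interaction on the 12 libraries ex vivo. Of these 10, 7 encode proteins of DNA replication or chromosome segregation, namely Mcm5, Rrm2 and Lig1 for replication, Cdk1 for entry into mitosis, and Top2a, Ncapd2 and Ckap5 for the chromosomes and the spindle. None of the 7 was called in follicular cells, where their log2 fold changes lay between 0.19 and 0.46, and all 7 were called lower in transitional cells, where they lay between -1.34 and -0.43. Top2a was at 15.4, 18.5 and 14.9 CPM in WT and 23.1, 24.3 and 16.2 CPM in Sh3gl1-/- follicular cells, and at 85.3, 137.8 and 128.0 CPM in WT and 48.6, 39.3 and 52.0 CPM in Sh3gl1-/- transitional cells. The groups did not overlap in transitional cells, and they did in follicular cells. The difference in log2 fold change was 1.71 (SE 0.27, edgeR adjusted p = 0.041).

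In the lists the same contrast appeared as medians. The 35 genes of DNA replication had a median log2 fold change of 0.12 in follicular and -0.51 in transitional cells, and the genes of mitosis 0.27 over the 29 tested in follicular and -1.17 over the 31 tested in transitional cells. None of either list was called in follicular cells, where Mcm3 (0.33) and Ube2c (1.05) had the lowest p, and 14 and 19 were called lower in transitional cells. P2rx4, an ATP-gated channel, and the noncoding transcripts Malat1 and Gm15675 were the other 3 genes of the interaction, with differences of -0.84, -0.41 and -0.75. The number of genes was 364 by DESeq2, 462 when all genes with at least 1 count were tested and 0 when all 18 libraries shared 1 fit. It also rests on single libraries, as 9 of the 12 fits that leave out 1 library called 0 genes, those without transitional WT replicate 2 or 3, transitional Sh3gl1-/- replicate 1 or 3, follicular WT replicate 1 or 2, or any follicular Sh3gl1-/- replicate.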

How the data were processed

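RNA of 18 samples was sequenced, and 6 are described here. Per the labels' processing notes cutadapt 1.9.1, STAR 2.5.2a and RSEM 1.3.0 were used with GRCm38, while the published methods name TopHat and Cufflinks, and the strand setting of the counting is not given in the sources used here. Levels of genes that overlap another on the opposite strand are less certain for that reason, among them Lrmp, Gpr183, H2-Oa, Cyp4f18 and Pltp. The labels name a KAPA mRNA kit and the methods SMART-Seq HT with Nextera XT. The deposited expected counts are the authors' RSEM estimates per gene, not normalized, and of 51912 identifiers 51719 are in GENCODE M21. The deposited TPM and FPKM values, scaled by the authors to transcript length and library size, were not used for any result. Every value column was matched to 1 sample by its name.

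Expected counts were rounded and tested in R 4.3.3 with edgeR 4.0.16 (filterByExpr, TMM, glmQLFit and glmQLFTest, Benjamini-Hochberg adjustment), within each cell state and, for differences between states, on the 12 libraries concerned. The SE was obtained from the log2 fold change and its F statistic. CPM values use TMM-scaled library sizes. Lists are described by counts and medians only, without a set test. Scripts were tested on simulated counts. The members, gene lists and marker lists were chosen with earlier results of these data known. Genes named are Sh3gl1 and its family, the 15 genes per direction with the lowest p among called, non-overlapping protein-coding genes beyond 5 Mb from Sh3gl1 and outside the iron list, every other called gene of a list with the lowest-p member of lists without one, and the families of receptors, HIVEP and serpin genes. The pair of genes at the threshold was added by the same rule, and other names are marked in the text. Some genes that met these rules are not reported here. Alternatives were DESeq2 1.42.0, RLE size factors, a mean of at least 1 CPM or a single count as the filter, the replicate number as a block, all 18 libraries in 1 fit and leaving out each library in turn. Fits with the level of the T cell or neutrophil list were added after seeing the data. The replicates of each group were not one library deposited again, since they differed beyond sampling noise, and nothing in the labels ties them to separate litters, so p-values measure the spread between these 3 mice per group. Promoter sequences are from RefSeq on GRCm38.p6, of which 81 of the 109 genes had one.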

Additional observations from a re-analysis of the deposited data

Results flagged for a closer look

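The effect of the genotype differed between follicular and transitional cells for 10 genes by edgeR's interaction test on 12 libraries, each at an adjusted p under 0.05. The difference in log2 fold change, follicular minus transitional, was 1.78 for Cdk1, 1.71 for Top2a, 1.54 for Rrm2, 1.27 for Lig1, 1.09 for Mcm5, 1.03 for Ncapd2 and 0.80 for Ckap5. It was -0.84 for P2rx4, -0.75 for Gm15675 and -0.41 for Malat1. The first 7 were lower in Sh3gl1-/- transitional cells and not called in follicular cells. P2rx4 was higher in Sh3gl1-/- transitional cells, at 41.8 ± 2.55 CPM in WT and 74.0 ± 6.92 CPM in Sh3gl1-/- cells (SD, n = 3), and level in follicular cells, at 70.1 ± 4.36 CPM and 69.5 ± 3.12 CPM. None of the 10 was called in 9 of the 12 fits that left out 1 library.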

How the results depend on the processing

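Genes changed in follicular cells numbered 115. DESeq2 called 352, all genes with at least 1 count gave 602, all 18 libraries in 1 fit 49, and the fits without 1 library between 32 and 112. With the level of the T cell list in the fit 1 was called and with that of the neutrophil list 2. For transitional cells the number was 514, with 1340 by DESeq2, 1426 for all genes with at least 1 count, 144 in the fit of 18 libraries and between 28 and 479 without 1 library. For CD40L-cultured cells it was 3, with 79, 216 and 82 under the same alternatives and between 1 and 9 without 1 library. The difference between follicular and transitional cells, 10 genes, gave 364 by DESeq2, 462 for all genes with at least 1 count, 0 in the fit of 18 libraries (1408 at an unadjusted p under 0.05) and between 0 and 23 without 1 library. That between follicular and CD40L-cultured cells, 0 genes, gave 29, 210 and 0 under these alternatives and between 0 and 1 without 1 library. RLE size factors and a mean of at least 1 CPM changed no count by over 1.5 times, and RLE moved the share of higher calls in follicular cells from 57.4% to 57.1%. The cause of these differences was not tested, except that fits without a library have fewer samples.

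With the replicate number as a block the counts were 212 in follicular cells, 90 in transitional cells, 21 after CD40L, 20 for the difference between follicular and transitional cells and 0 for that with CD40L-cultured cells. The correlation of same-numbered libraries of the 2 genotypes around their group means was 0.055, -0.031 and -0.059 in follicular cells. These values are near 0, but they cannot show whether same-numbered mice shared a batch or litter.

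Of the genes named by rule and tested, 2 changed direction in any fit. Hivep2, which was not called, lay between -0.067 (without Sh3gl1-/- replicate 2) and 0.14 in the fits without 1 library, and Fas, also not called, went to -0.33 with the level of the T cell list in the fit. Of the 109 called genes, not all of which are named by that rule, 108 kept their direction with that level in the fit. Counts of called genes per list moved by over 1.5 times for 25 of 43 lists by DESeq2, for 35 with all genes of at least 1 count, for 16 with the block and for between 7 and 14 without 1 library. Depth limits the genes near the floor of 3 counts, among them Smim1, Aoah, Neurod4, Gm10273 and Gm20775.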
